A study of Homo sapiens with 9 samples.

Results

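The genes described are 32 targets of the hypoxia-inducible factors (HIF) that lie outside glycolysis. They were taken by name from a list, and all 32 were found among the 15570 genes of the deposited table. RNA had been sequenced from hCMEC/D3, a line of immortalised endothelial cells from human brain microvessels (labelled hCMEC). There were 3 groups of 3 libraries: Control_cells, which stayed untreated, OGD_treatment, and OGD_R_treatment. OGD stands for oxygen and glucose deprivation, here 4 h in medium without glucose under 95% N2 and 5% CO2, begun at 80% confluence. OGD/R cells had the same 4 h of deprivation and then 16 h in normal medium at 21% O2 and 5% CO2. All groups are 1 cell line, and the labels name no genetic difference between groups. The labels also give no hypoxic arm with glucose and no glucose-free arm with oxygen. Medium change and the extra 16 h in culture cannot be told apart from reoxygenation. Nothing says that replicates were separate cultures, so the p-values reflect just how far these libraries differ among themselves, and that spread may be technical.

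HIF is a pair of proteins, an alpha subunit (HIF-1alpha or HIF-2alpha) and ARNT. With oxygen, prolyl hydroxylases mark the alpha subunit and the VHL complex has it degraded; without oxygen it accumulates and binds DNA at short motifs with the core ACGTG or GCGTG. The genes described here are known outputs of that switch: enzymes that buffer acid, secreted vasoactive and metabolic factors, enzymes that modify and crosslink collagen, proteins of mitophagy, transcription regulators that feed back on the response, and regulators of lipids and growth signalling. In brain endothelium HIF targets act on vessel tone, permeability and the basement membrane. RNA levels measure neither HIF protein nor its binding.

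RefSeq promoter windows (GRCh38.p14, 250 bases before to 50 bases after the start of transcription) were found for 26 of the 32 genes, and none was used for STC1, LOXL2, BNIP3L, JMJD6, HILPDA and NDRG1. ACGTG, read on both strands, occurred in 16 of the 26 windows (61.5%), against 27.4% of the 8999 windows of all tested genes and 21.6% of 27305 windows in all. GCGTG occurred in 13 of 26 (50.0%), against 51.7% of the windows of tested genes. The palindrome CACGTG, which contains ACGTG on both strands, was in 8 of 26 (30.8%) against 10.2%, and TGATGNAA, a pattern like the ATF4 response element, in 0 of 26 against 1.5%. A match is a run of letters and not a measured binding site. To show how differently the cores are placed, a stretch of 60 bases around the cores is given, all of it before the start. It is given for some of the genes called lower in OGD (CA9, BHLHE40, ANGPTL4, BNIP3, WSB1, PLOD1). It is also given for the member that rose in OGD (STC2) and for 2 that were not called in OGD (ANKRD37, FAM162A). Other members with cores, among them DDIT4 and AK4, are not shown. Each stretch is written 5′ to 3′ on the gene's strand, and capitals mark ACGTG or GCGTG or their reverse complements CACGT and CACGC.
CA9: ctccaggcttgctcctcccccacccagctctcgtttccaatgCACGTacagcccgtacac
BHLHE40: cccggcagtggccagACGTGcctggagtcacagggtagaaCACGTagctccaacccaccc
ANGPTL4: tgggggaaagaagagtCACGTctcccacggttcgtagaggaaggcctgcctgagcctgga
BNIP3: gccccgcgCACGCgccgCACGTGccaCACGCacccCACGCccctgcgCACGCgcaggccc
WSB1: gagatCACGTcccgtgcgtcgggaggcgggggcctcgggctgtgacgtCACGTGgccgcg
PLOD1: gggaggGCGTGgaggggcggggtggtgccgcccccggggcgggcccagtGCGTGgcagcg
STC2: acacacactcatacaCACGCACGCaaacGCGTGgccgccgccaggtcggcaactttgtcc
ANKRD37: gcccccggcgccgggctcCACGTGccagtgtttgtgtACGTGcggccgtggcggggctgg
FAM162A: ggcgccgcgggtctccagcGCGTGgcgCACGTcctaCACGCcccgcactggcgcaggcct
Coordinates (GRCh38.p14) are chr9:35673868-35673927 (plus strand) for CA9, chr3:4979248-4979307 (plus) for BHLHE40, chr19:8363905-8363964 (plus) for ANGPTL4, chr10:131982015-131982074 (minus) for BNIP3, chr17:27294008-27294067 (plus) for WSB1, chr1:11934643-11934702 (plus) for PLOD1, chr5:173328605-173328664 (minus) for STC2, chr4:185396661-185396720 (plus) for ANKRD37 and chr3:122384071-122384130 (plus) for FAM162A. CA9 had a single core, which begins 18 bases before the start. BNIP3 had 6 matches within its 60 bases, counting both strands of its 1 CACGTG. STC2 had GCGTG and no ACGTG, while ANKRD37 had 3 ACGTG matches, 2 of them in 1 CACGTG. ERRFI1, P4HA2, SAP30 and MXI1 had neither core in this window. Genes with and without a core therefore occurred both among those that changed and among those that were not called, as the values below show.

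Levels are FPKM (fragments scaled to transcript length and to the mapped fragments of the library) as deposited. They summed to 454237 to 537878 per control library, 585947 to 605818 per OGD library and 442696 to 449248 per OGD/R library, and the number of reads is unknown. Over all 10818 genes tested, log2 fold changes had a median of -0.31 in OGD against control, 0.39 in OGD/R against OGD and 0.07 in OGD/R against control. Single fold changes below are on the deposited scale, and "relative" values have these medians subtracted. Median-of-ratios scaling, which divides each library by its typical ratio to the mean library, brought the 3 medians to -0.03, 0.06 and 0.01. Of 16 endothelial marker genes 7 passed the expression filter, and VWF, CLDN5, KDR, FLT1, TEK, TIE1 and ERG stayed below 1 FPKM in every library. Control libraries had 51.7 to 65.9 FPKM summed over 15 of these markers, OGD libraries 36.4 to 37.4, and OGD/R libraries 107 to 122. The 6 fibroblast markers summed to 20.5 to 28.6, 9.23 to 10.8 and 52.2 to 69.7 FPKM in the same order, with COL3A1, DCN and PDGFRA below 1 FPKM throughout, and 8 pericyte and smooth muscle markers to 10.2 to 13.7, 6.14 to 7.74 and 17.1 to 19.5 FPKM. The sum of 6 epithelial markers was 166 to 201, 130.4 to 139.6 and 238 to 257 FPKM, with EPCAM, CDH1, KRT14 and KRT19 below 1 FPKM throughout, and that of 5 leukocyte and microglia markers 18.2 to 21.6, 21.4 to 22.4 and 27.5 to 29.6 FPKM, with PTPRC, AIF1 and ITGAM below 1. The 4 astrocyte markers summed to at most 0.587 FPKM in any library. The endothelial, fibroblast, pericyte and epithelial sums move in the same directions as many genes below, and their part in the results was not tested. KRT18 made up most of the epithelial sum (157 to 188 FPKM in control). MCAM and ENG made up most of the endothelial sum (21.9 to 28.9 and 11.1 to 17.0 in control). Some members did not follow their sum throughout. KRT8 stayed within 8.92 to 13.2 FPKM in all libraries. EGFL7 and RGS5 were not raised in OGD/R (6.71 to 11.6 and 0.737 to 1.60) over control (10.0 to 14.8 and 0.680 to 3.31). PECAM1 and CDH5 were low throughout (0.362 to 1.55 and 0.270 to 2.62 FPKM). In bulk RNA, fewer cells of a type and less RNA per cell cannot be told apart.

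After 4 h of deprivation most of these genes were lower, not higher. Of the 32, 30 passed the filter (at least 1 FPKM in at least 3 libraries), and BHLHE41 and VLDLR did not. In OGD against control, 22 of the 30 were called lower (adjusted p under 0.05, limma) against 46.7% of all genes tested, 1 was called higher (STC2) against 11.3%, and 7 were not called. Their median log2 fold change was -0.65 beside -0.31 for all genes. Falls of at least 1 log2 unit were called for 6 members, CA9, AK4, BHLHE40, DDIT4, NDRG1 and ERRFI1, and for 4.63% of all genes. After median-of-ratios scaling 17 were lower and 4 higher, against 24.9% and 24.8% of all genes, with a median of -0.33. The balance of directions thus depends on scaling, and the 3 genes called higher beside STC2 on that scale were CA12, LOXL2 and HILPDA.

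After reoxygenation the members stood higher than in OGD, and many stood above control. Against OGD, 22 of 30 were called higher against 53.3% of all genes, 15 of them by at least 1 log2 unit against 17.0%, and 2 were lower (STC2 and FAM162A) against 17.4%. Their median was 0.98 beside 0.39 for all genes. After median-of-ratios scaling 20 were higher and 6 lower, against 35.6% and 31.5% of all genes. Against control 13 were called higher against 24.7% of all genes and 6 lower against 16.5%, with a median of 0.27 beside 0.07, and 7 were higher by at least 1 log2 unit against 3.04%. These counts were 13 and 7 after median-of-ratios scaling, against 23.6% and 20.7%. Each pair of comparisons shares 1 group of libraries, so they are not independent of each other.

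**Figure D1:**
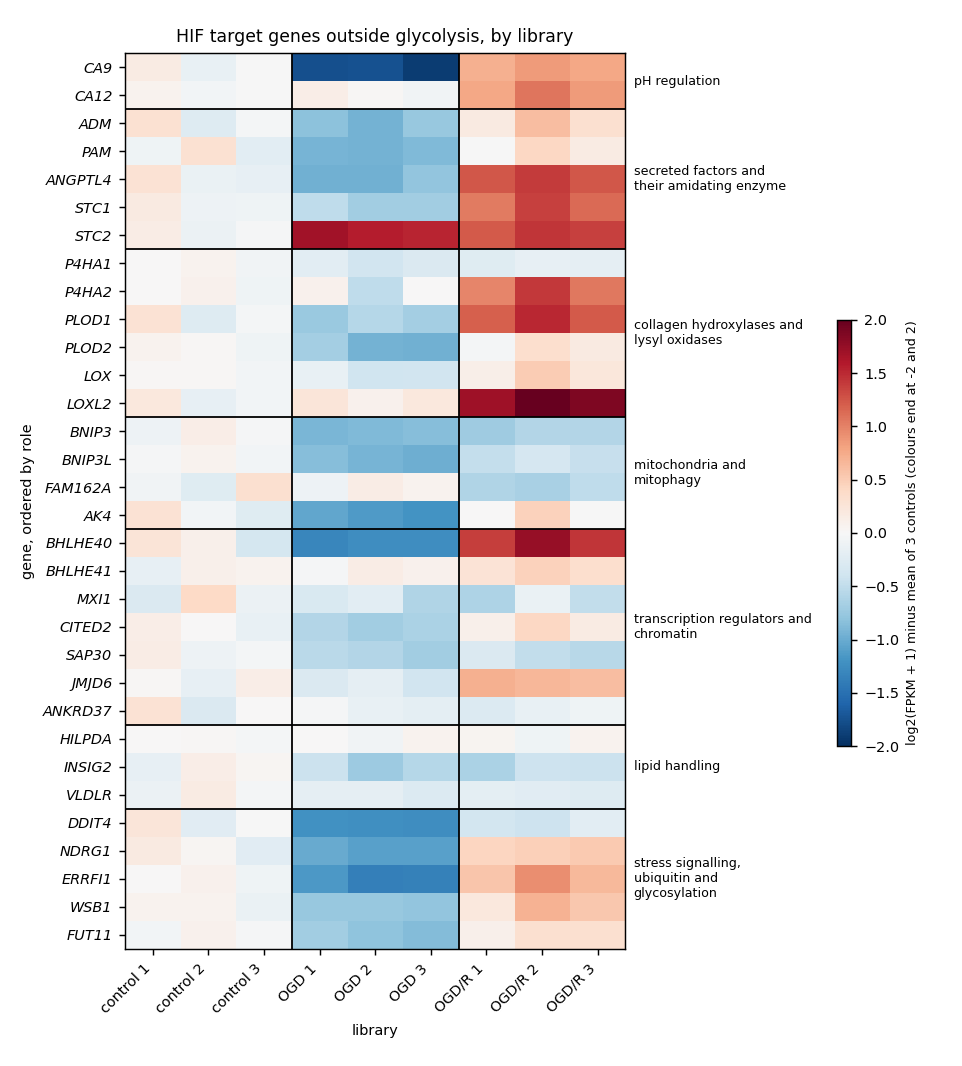
Each cell is 1 gene in 1 library, coloured by log2(FPKM + 1) minus the mean of the 3 control libraries, with genes in rows ordered by role and libraries in columns. The OGD columns are blue for 22 genes called lower and deep red for STC2, and the OGD/R columns are red for LOXL2, BHLHE40, PLOD1, ANGPTL4 and STC1 but blue for BNIP3, BNIP3L, FAM162A, SAP30 and INSIG2.

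**Figure D2:**
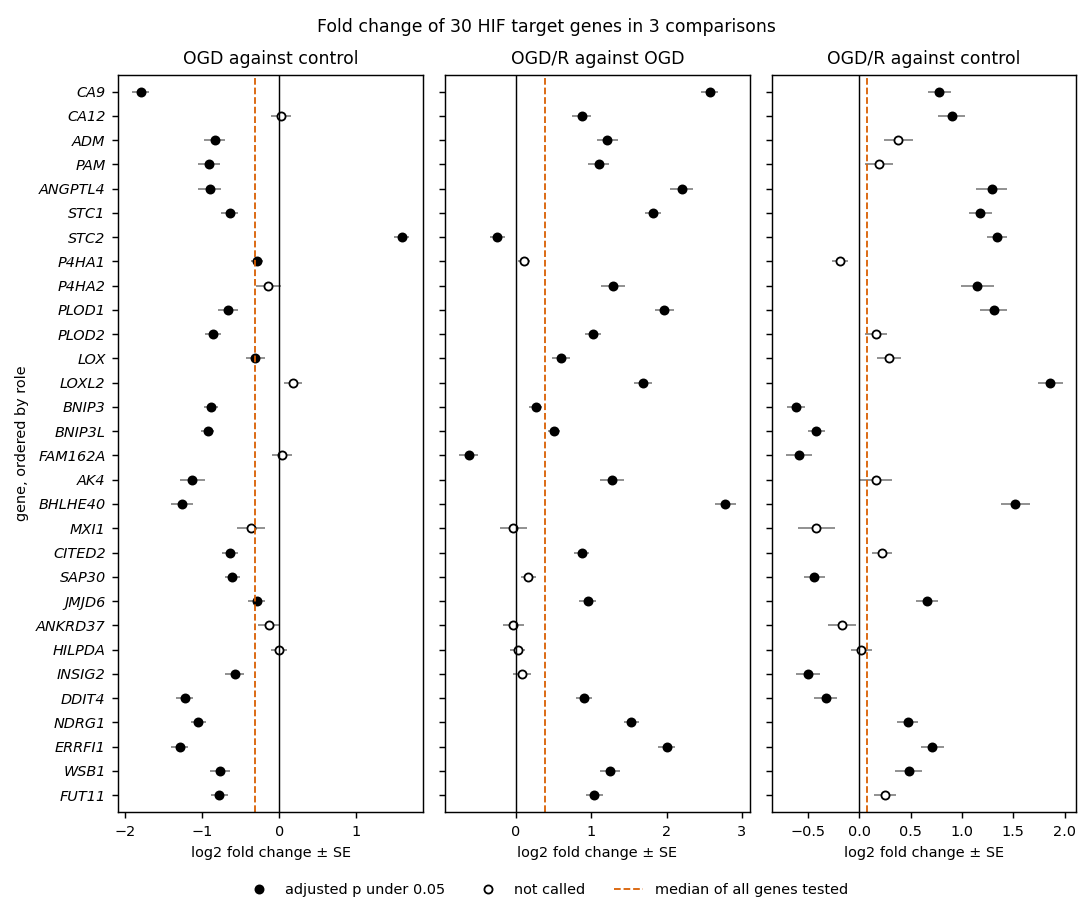
Log2 fold changes of the 30 genes tested are plotted with their standard errors, 1 panel per comparison; filled points have an adjusted p under 0.05 and the dashed line is the median of all 10818 genes. In OGD against control most points lie left of the dashed line at -0.31, with STC2 alone far to the right at 1.59.

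The carbonic anhydrases CA9 and CA12 are membrane enzymes that hydrate CO2 outside the cell and so take part in pH control. CA9 (NCBI Gene 768, chromosome 9, 35673928 to 35681159, GRCh38) read 23.1, 18.4 and 20.5 FPKM in control, 5.39, 5.47 and 4.79 in OGD and 34.2, 37.9 and 35.8 in OGD/R. No 2 groups overlapped, with OGD lowest and OGD/R highest. CA9 had the deepest fall of the 30 members in OGD (log2 fold change -1.80, SE 0.11, adjusted p = 4.39e-07), a 3.96-fold lower mean, and stood 2.57 log2 units higher in OGD/R than in OGD (SE 0.11, adjusted p = 1.23e-08) and 0.78 above control (adjusted p = 2.07e-04). Part of its exon sequence (38.5%) is shared with ARHGEF39 on the other strand, and strand use is not given. ARHGEF39 itself read 3.90 to 6.77 FPKM over all libraries and was called in no comparison; its part in the CA9 values was not tested. Mean CA12 FPKM was 3.29 ± 0.190 (control), 3.38 ± 0.306 (OGD) and 7.02 ± 0.884 (OGD/R; SD, n = 3 each). It was not called in OGD (0.03, adjusted p = 0.869), but was higher in OGD on the median-of-ratios scale (0.29, adjusted p = 0.0254), and it was higher in OGD/R than in control (0.90, adjusted p = 2.38e-04). Its difference between OGD/R and OGD (0.87) was no longer called once the trend with transcript length was removed (0.16, adjusted p = 0.173).

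Among secreted factors, adrenomedullin (ADM) is a vasodilator peptide that tightens endothelial barriers, and PAM is the enzyme that amidates its C terminus. ADM read 150.0, 101 and 118 FPKM in control, 68.5, 62.6 and 71.2 in OGD and 138, 187 and 151 in OGD/R. PAM read 50.4, 66.7 and 46.4, then 27.9, 27.6 and 28.9, then 53.3, 72.3 and 60.4 FPKM. For both genes OGD lay below both other groups, and OGD/R overlapped control. ADM fell by 0.84 on the log2 scale in OGD (SE 0.14, adjusted p = 4.99e-04) and PAM by 0.91 (SE 0.14, adjusted p = 2.16e-04). They were higher in OGD/R than in OGD by 1.21 (adjusted p = 1.19e-05) and 1.10 (adjusted p = 1.73e-05). Against control, ADM in OGD/R missed the threshold (0.38, adjusted p = 0.0516). It was called without control replicate 1 (0.53, adjusted p = 0.00779) or OGD/R replicate 1 (0.47, adjusted p = 0.0367). Quantile normalization (0.51, adjusted p = 0.0143) and removal of the length trend (0.43, adjusted p = 0.0181) also gave a call. So did a filter at 5 FPKM (adjusted p = 0.0440) and a robust prior (adjusted p = 0.0499), but not median-of-ratios scaling (0.31, adjusted p = 0.0552). PAM in OGD/R was not called against control (0.19, adjusted p = 0.284), except without control replicate 2 (0.34, adjusted p = 0.0351).

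ANGPTL4 encodes a secreted inhibitor of lipoprotein lipase. It read 4.25, 2.90 and 2.84 FPKM in control, 1.19, 1.21 and 1.48 in OGD and 9.12, 10.3 and 9.16 in OGD/R. The 3 groups were apart, at the lowest level of any called member in OGD. It fell by 0.90 on the log2(FPKM + 1) scale in OGD (SE 0.15, adjusted p = 3.53e-04), which understates a 2.58-fold lower mean, and mean FPKM in OGD/R was 7.35 times that in OGD (log2 fold change 2.20, adjusted p = 2.14e-07) and 2.86 times that in control (1.29, adjusted p = 6.06e-05).

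STC1 and STC2 encode stanniocalcins, secreted glycoproteins tied to calcium and phosphate handling; STC2 is also a target of ATF4, the transcription factor of the integrated stress response. STC1 read 29.3, 24.1 and 24.3 FPKM in control, 17.8, 15.5 and 15.6 in OGD and 54.3, 68.0 and 58.0 in OGD/R. STC2 (NCBI Gene 8614, chromosome 5, 173314723 to 173328414) read 33.8, 27.9 and 30.1, then 99.9, 92.9 and 89.6, then 72.8, 84.3 and 80.4 FPKM. STC1 was lowest in OGD and STC2 highest there, and no groups of either gene overlapped. STC2 rose by 1.59 in OGD (SE 0.10, adjusted p = 4.39e-07), while STC1 fell by 0.64 (SE 0.11, adjusted p = 6.28e-04). In OGD/R both stood above control, STC1 by 1.18 (adjusted p = 2.34e-05) and STC2 by 1.34 (adjusted p = 3.61e-06). The decline of STC2 from OGD to OGD/R was small (-0.25, adjusted p = 0.0331), and its call was lost without OGD replicate 1 or 2 or OGD/R replicate 1 or 3, where adjusted p lay between 0.0637 and 0.125. Quantile normalization also ended the call (-0.15, adjusted p = 0.138), while it was -0.65 on the median-of-ratios scale (adjusted p = 2.72e-05).

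Collagen is made stable by prolyl hydroxylases (P4HA1, P4HA2), prepared for crosslinking by lysyl hydroxylases (PLOD1, PLOD2) and crosslinked outside the cell by lysyl oxidases (LOX, LOXL2). Of these 6 genes 4 were lower and 0 higher in OGD, where 46.7% of all genes were lower and the median of the 6 (-0.30) was that of the typical gene. After median-of-ratios scaling 2 were lower and 1 higher, against 24.9% and 24.8% of all genes. From OGD to OGD/R 5 were higher, against 53.3% of all genes. In OGD/R 3 (P4HA2, PLOD1 and LOXL2) were higher than in control, each by more than 1 log2 unit. Over all genes 24.7% were higher than in control, and 3.04% by at least 1 log2 unit. LOXL2 read 34.2, 25.9 and 28.3 FPKM in control, 35.0, 31.0 and 33.9 in OGD and 97.4, 122 and 109 in OGD/R. Its control and OGD libraries overlapped, and all OGD/R libraries stood above them. It had the largest rise over control of the 30 genes tested (1.86, SE 0.12, adjusted p = 2.54e-06), a 3.71-fold higher mean. In OGD it was not called (0.18, adjusted p = 0.195), though it was called higher after median-of-ratios scaling (0.51, adjusted p = 0.00102) and without control replicate 1 (0.29, adjusted p = 0.0459).

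PLOD1 read 39.8, 26.9 and 31.2 FPKM in control, 18.9, 21.4 and 19.8 in OGD and 75.2, 93.0 and 77.0 in OGD/R, with no overlap between groups. It fell by 0.66 in OGD (SE 0.13, adjusted p = 0.00140) and was higher in OGD/R than in control by 1.31 (SE 0.13, adjusted p = 3.31e-05). P4HA2 read 15.2, 16.1 and 14.2, then 16.1, 10.4 and 15.2, then 30.8, 42.1 and 32.6 FPKM. OGD overlapped control, with its replicate 2 below every control library, and was not called (-0.14, adjusted p = 0.458), and OGD/R was higher than control by 1.15 (SE 0.16, adjusted p = 1.86e-04). PLOD2 read 226, 220.3 and 203, then 135, 112 and 111, then 210.4, 273 and 244 FPKM. OGD was below all other libraries (-0.86, SE 0.11, adjusted p = 8.83e-05), and OGD/R overlapped control (0.16, adjusted p = 0.282).

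P4HA1 and LOX moved less. P4HA1 averaged 90.6 ± 4.49, 73.9 ± 4.41 and 79.2 ± 2.24 FPKM in control, OGD and OGD/R (SD, n = 3). Its fall in OGD (-0.29, adjusted p = 0.00896) is close to the shift of all genes and was 0.04 after median-of-ratios scaling (adjusted p = 0.660). It was also lost without OGD replicate 2 (adjusted p = 0.0548). In OGD/R, P4HA1 was called neither against OGD (0.10, adjusted p = 0.289) nor against control (-0.19, adjusted p = 0.0762). After median-of-ratios scaling it was lower in both (-0.30, adjusted p = 0.00488, and -0.26, adjusted p = 0.0188). It was also lower in both with the length trend removed (-0.18, adjusted p = 0.0426, and -0.25, adjusted p = 0.0155). LOX averaged 20.1 ± 0.680, 16.1 ± 1.62 and 25.0 ± 3.82 FPKM. Its fall in OGD (-0.31, adjusted p = 0.0371) became 0.01 after median-of-ratios scaling and was lost without control replicate 1 or 2, OGD replicate 2 or 3 or OGD/R replicate 3, with adjusted p from 0.0508 to 0.126. Its rise from OGD to OGD/R (0.60, adjusted p = 5.96e-04) ended with the length trend removed (0.01, adjusted p = 0.933). The fibroblast markers COL1A1 and COL1A2 encode chains of the collagen that these enzymes modify. Their OGD libraries read 1.98 to 2.76 and 4.05 to 4.49 FPKM, below control libraries at 4.82 to 8.82 and 10.5 to 15.1. Their OGD/R libraries, at 24.9 to 34.2 and 24.1 to 30.8 FPKM, stood above both. LUM, also a fibroblast marker, did not rise after reoxygenation (3.12 to 3.66 FPKM before it, 2.87 to 4.07 after it). Its untreated libraries were higher, at 4.08 to 4.68 FPKM.

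BNIP3 and BNIP3L are outer-membrane receptors that mark mitochondria for autophagy, FAM162A is a mitochondrial protein linked to hypoxic cell death, and AK4 is an adenylate kinase of the mitochondrial matrix. None of the 4 was higher in OGD/R than in control, against 24.7% of all genes. BNIP3, BNIP3L and FAM162A were lower, against 16.5% of all genes. BNIP3, the most abundant member in control and in OGD by FPKM, had mean FPKM of 258 ± 22.5 (control), 139 ± 3.20 (OGD) and 167 ± 8.54 (OGD/R; SD, n = 3 each). It fell by 0.89 in OGD (SE 0.09, adjusted p = 1.40e-05) and remained 0.62 below control in OGD/R (adjusted p = 2.16e-04). BNIP3L averaged 99.4 ± 4.30, 51.8 ± 2.27 and 73.8 ± 4.09 FPKM, with a fall of 0.93 in OGD (SE 0.08, adjusted p = 6.01e-06) and of 0.42 in OGD/R against control (adjusted p = 0.00152). For both genes the 3 groups did not overlap and control was highest. From OGD to OGD/R they rose about as much as the typical gene. For BNIP3 it was 0.26 (adjusted p = 0.0169), and -0.14 after median-of-ratios scaling (adjusted p = 0.228); the call was also lost without OGD replicate 1 or 2 or OGD/R replicate 3, where adjusted p lay between 0.0526 and 0.0628. For BNIP3L it was 0.50 (adjusted p = 1.43e-04), and 0.10 after median-of-ratios scaling (adjusted p = 0.236). GENCODE 29 names 39 pseudogenes of BNIP3 and 6 of AK4, so reads of these genes may be shared with copies.

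FAM162A went another way. It averaged 32.2 ± 6.87 FPKM in control and 32.8 ± 2.95 in OGD, which overlapped (0.04, adjusted p = 0.796), and 20.8 ± 0.976 in OGD/R, below every other library (-0.59 against control, adjusted p = 0.00406). AK4 read 10.6, 8.13 and 7.04 FPKM in control, 3.61, 3.31 and 3.12 in OGD and 8.53, 12.1 and 8.45 in OGD/R. OGD was lowest (-1.13, SE 0.16, adjusted p = 1.90e-04), and OGD/R overlapped control (0.16, adjusted p = 0.470).

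**Figure D3:**
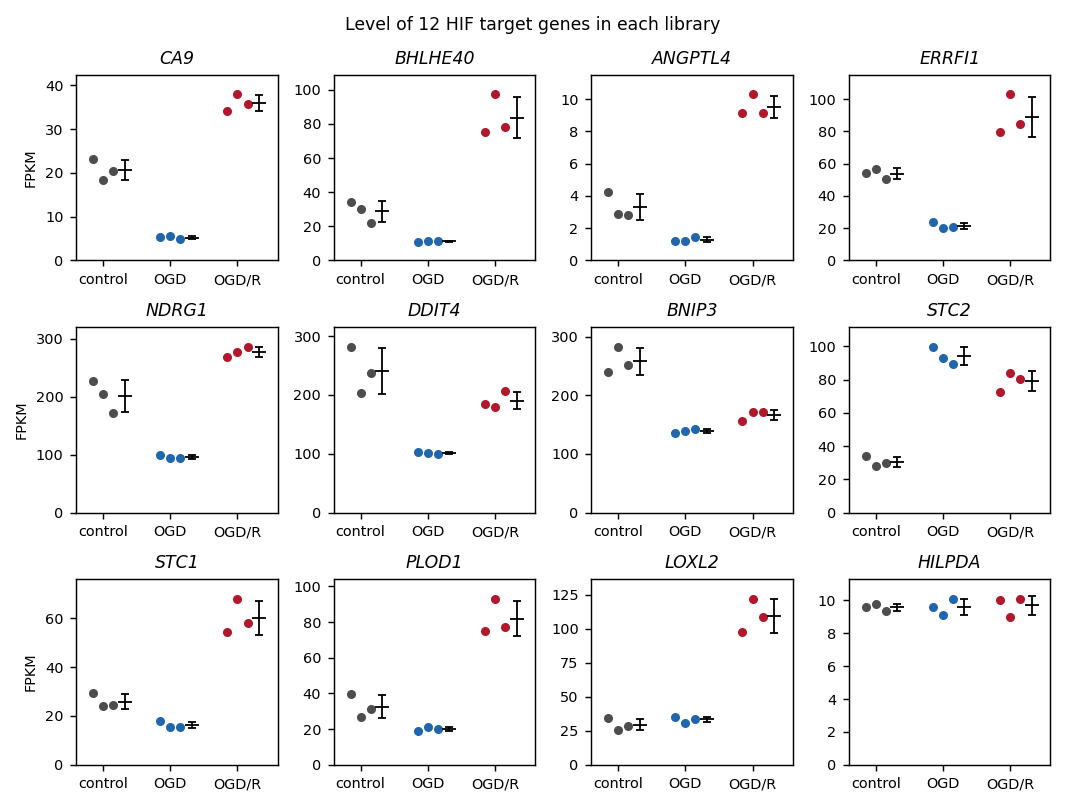
FPKM of 12 genes in each library (points), with the mean and SD of each group's 3 libraries beside them (black); axes start at 0 and differ between panels. OGD is the lowest group for CA9, BHLHE40, ANGPTL4, ERRFI1, NDRG1, DDIT4, BNIP3, STC1 and PLOD1, the highest for STC2, and HILPDA lies between 9.02 and 10.1 FPKM in all 9 libraries.

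BHLHE40 encodes a helix-loop-helix repressor that HIF induces and that binds E-boxes. It read 34.1, 30.4 and 22.1 FPKM in control, 10.9, 11.4 and 11.5 in OGD and 75.5, 97.3 and 78.2 in OGD/R. The groups were apart, and the OGD values lay within 1 FPKM of each other. BHLHE40 fell by 1.26 in OGD (SE 0.14, adjusted p = 3.81e-05), and its difference between OGD/R and OGD was the largest of the 30 genes (2.78, SE 0.14, adjusted p = 5.74e-08, a 7.43-fold higher mean). It stood 1.52 above control in OGD/R (adjusted p = 2.30e-05). Its relative BHLHE41 was below the filter, at 0.251 to 0.567 FPKM in control and OGD and 0.705 to 0.933 in OGD/R.

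Of the other regulators, CITED2 competes with HIF for the coactivators CREBBP and EP300, SAP30 is a subunit of a histone deacetylase complex, JMJD6 is an oxygen-dependent hydroxylase, MXI1 opposes MYC and ANKRD37 is an ankyrin repeat protein. CITED2 averaged 119 ± 11.5, 75.6 ± 2.73 and 139 ± 16.6 FPKM in control, OGD and OGD/R (SD, n = 3), lower in OGD by 0.64 (adjusted p = 3.21e-04) and not called against control in OGD/R (0.22, adjusted p = 0.0962). SAP30 averaged 64.8 ± 5.81, 42.2 ± 2.41 and 47.4 ± 4.64 FPKM. It fell by 0.61 in OGD (adjusted p = 3.81e-04), which did not pass on the median-of-ratios scale (-0.27, adjusted p = 0.0530), and was still below control in OGD/R (-0.44, adjusted p = 0.00383). JMJD6 averaged 14.0 ± 1.53, 11.3 ± 0.878 and 22.7 ± 0.759 FPKM and was higher in OGD/R than in control by 0.66 (adjusted p = 5.26e-04). Its fall in OGD (-0.29, adjusted p = 0.0347) is that of the typical gene, 0.02 after median-of-ratios scaling, and was lost without control replicate 1 or 3, OGD replicate 1 or 3 or OGD/R replicate 3, where adjusted p lay between 0.0523 and 0.134.

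MXI1, ANKRD37 and HILPDA passed in none of the 3 comparisons on the deposited scale. MXI1 read 10.6, 17.7 and 12.1 FPKM in control, 10.5, 11.3 and 8.30 in OGD and 8.22, 11.9 and 9.12 in OGD/R, with overlap throughout and adjusted p of 0.0984, 0.837 and 0.0872 in the order of comparisons above. Without control replicate 1 it was lower in OGD (-0.52, adjusted p = 0.0396) and in OGD/R against control (-0.56, adjusted p = 0.0338). With quantile normalization MXI1 was lower in OGD/R than in OGD (-0.54, adjusted p = 0.0272) and in control (-0.55, adjusted p = 0.0343). With the length trend removed it was lower in OGD/R than in control (-0.53, adjusted p = 0.0394). ANKRD37 read 14.8, 9.57 and 12.1, then 11.8, 10.7 and 10.3, then 9.71, 10.7 and 11.2 FPKM, and 35.2% of its exon sequence overlaps UFSP2 on the other strand (12.7 to 19.7 FPKM). HILPDA, a lipid droplet protein that inhibits fat breakdown and a sensitive hypoxia marker in many cells, read 9.62, 9.79 and 9.34, then 9.63, 9.09 and 10.1, then 10.0, 9.02 and 10.1 FPKM. Its log2 fold change in OGD was 0.00 (SE 0.10, adjusted p = 0.992); relative to the typical gene it was 0.31, and it was called higher after median-of-ratios scaling (0.31, adjusted p = 0.0269). On that scale ANKRD37 (-0.42, adjusted p = 0.0105) and HILPDA (-0.35, adjusted p = 0.0103) were lower in OGD/R than in OGD. With the length trend removed neither was called there (ANKRD37 0.16, adjusted p = 0.270; HILPDA 0.13, adjusted p = 0.231). HILPDA was then not called in OGD against control either (0.03, adjusted p = 0.840).

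INSIG2 holds the sterol sensor SCAP in the endoplasmic reticulum, and VLDLR takes up lipoproteins. INSIG2 averaged 16.7 ± 1.78, 10.8 ± 1.16 and 11.5 ± 0.957 FPKM (SD, n = 3). It was lower than control in OGD (-0.58, adjusted p = 0.00157), which did not pass on the median-of-ratios scale (-0.27, adjusted p = 0.0680), and in OGD/R (-0.50, adjusted p = 0.00593). VLDLR stayed between 0.262 and 0.702 FPKM in all libraries and was not tested.

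DDIT4 (REDD1) inhibits mTORC1 and is a target of both HIF and ATF4, NDRG1 is a growth and differentiation protein that is strongly induced by hypoxia, and ERRFI1 (MIG6) inhibits the EGF receptor. DDIT4 (NCBI Gene 54541, chromosome 10, 72273924 to 72276036) read 282, 203 and 237 FPKM in control, 103, 101 and 100.2 in OGD and 185, 179.7 and 206 in OGD/R. OGD was far below both other groups, and OGD/R overlapped control at its lower end. Its log2 fold change in OGD was -1.23 (SE 0.11, adjusted p = 8.28e-06). In OGD/R against control the difference was -0.33 (adjusted p = 0.0331), and -0.21 without control replicate 1 (adjusted p = 0.120). It was also lost without control replicate 3 or OGD/R replicate 1 or 2, where adjusted p lay between 0.0519 and 0.107. The antisense gene DDIT4-AS1 covers 41.2% of its exon sequence and was not analysed here.

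NDRG1 read 226, 205 and 171 FPKM in control, 99.0, 93.7 and 93.7 in OGD and 268, 277 and 286 in OGD/R. ERRFI1 read 54.2, 57.0 and 50.4, then 23.7, 20.3 and 20.5, then 79.5, 103 and 84.7 FPKM. Neither gene had overlapping groups, with OGD lowest and OGD/R highest in both. NDRG1 fell by 1.05 in OGD (SE 0.10, adjusted p = 1.13e-05) and stood 0.47 above control in OGD/R (adjusted p = 0.00286). ERRFI1 fell by 1.29 (SE 0.11, adjusted p = 4.55e-06) and stood 0.71 above control (adjusted p = 3.90e-04).

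WSB1 is the substrate receptor of a ubiquitin ligase, and FUT11 is a fucosyltransferase of the secretory pathway (named POFUT4 in the RefSeq table). WSB1 read 14.2, 14.1 and 12.1 FPKM in control, 7.55, 7.57 and 7.31 in OGD and 15.7, 22.3 and 20.0 in OGD/R. FUT11 read 14.0, 15.6 and 14.3, then 8.62, 7.98 and 7.60, then 15.7, 18.5 and 18.6 FPKM. Both genes were lowest in OGD and highest in OGD/R without overlap. WSB1 fell by 0.77 in OGD (adjusted p = 4.47e-04) and FUT11 by 0.78 (adjusted p = 1.20e-04). WSB1 was above control in OGD/R (0.48, adjusted p = 0.00994), whereas FUT11 did not pass there (0.25, adjusted p = 0.0764) on the deposited scale.

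Ratios between related members within a library do not depend on a scaling factor per library. They can still carry a trend with transcript length where the paired genes differ in length. The pairs were chosen with the values known and are given without a test. STC2 over STC1 was 1.18 ± 0.0501 (control), 5.80 ± 0.193 (OGD) and 1.32 ± 0.0759 (OGD/R; SD, n = 3 each), so the 2 stanniocalcins were near balance in control and in OGD/R and far from it in OGD. CA9 over CA12 was 6.26 ± 0.353, 1.55 ± 0.0860 and 5.15 ± 0.369. CA9 has 1618 transcript bases and CA12 has 6413. With the length trend removed, CA9 stood 0.87 log2 units above control in OGD/R and CA12 0.63, beside 0.78 and 0.90 on the deposited scale. P4HA1 over P4HA2 was 5.97 ± 0.0928, 5.47 ± 1.06 and 2.29 ± 0.314, and PLOD2 over PLOD1 ranged from 5.68 to 8.19, 5.24 to 7.16 and 2.80 to 3.17. In both hydroxylase pairs all OGD/R ratios lay below all others, whereas OGD and control ratios overlapped. LOX over LOXL2 was 0.693 ± 0.0984, 0.483 ± 0.0323 and 0.228 ± 0.0110. BNIP3 over BNIP3L stayed within 2.19 to 2.85 in all 9 libraries, but all OGD/R ratios (2.19 to 2.39) lay below all others.

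**Figure D4:**
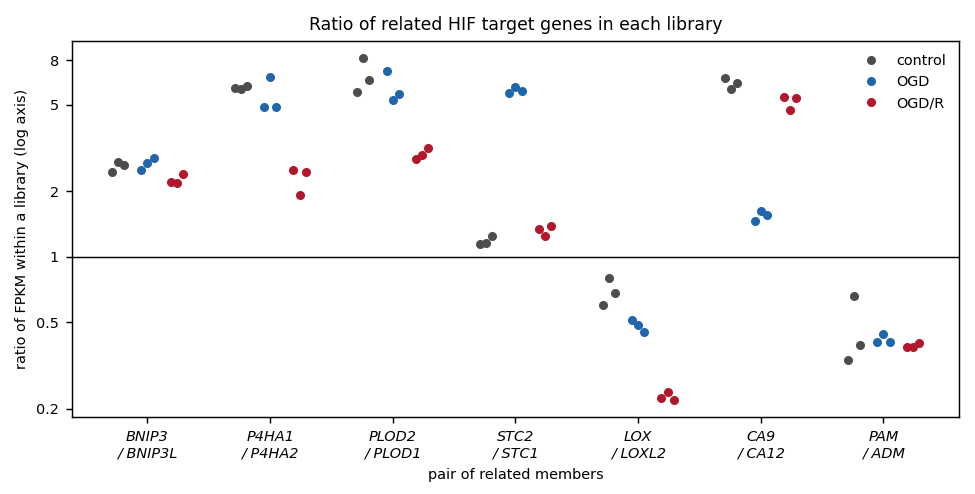
Points are the FPKM ratio of 2 related genes within each of the 9 libraries, on a log axis, coloured by group; the line marks a ratio of 1. STC2 over STC1 is 5.63 to 6.01 in OGD against 1.15 to 1.39 elsewhere, and both hydroxylase ratios drop in OGD/R.

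Fold changes were also set against transcript length. Log2 fold change and log2 length had r = -0.34 over 10804 genes in OGD against control, and 0.19 over the 30 members, 0.47 over all genes and 0.09 over the members in OGD/R against OGD, and 0.36 and 0.28 in OGD/R against control. These are descriptions across genes of the same libraries, and genes are not independent replicates. The members' median transcript of 3409 bases was close to the 3347 bases of all genes tested.

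The rest of the pathway was counted from lists. Of 14 tested genes for HIF subunits and oxygen sensing 8 were lower and 0 higher in OGD, or 6 and 3 after median-of-ratios scaling. Over all genes 46.7% were lower and 11.3% higher, or 24.9% and 24.8% after median-of-ratios scaling. The list's median of -0.36 is near the -0.31 of all genes. HIF1A, the oxygen-regulated alpha subunit, averaged 78.8 ± 10.6 FPKM in control and was lower in OGD, at 49.7 ± 3.94 (SD, n = 3; -0.65, adjusted p = 7.45e-04), and averaged 65.2 ± 8.11 in OGD/R. EPAS1, which encodes HIF-2alpha, averaged 31.3 ± 1.56 in control and 29.3 ± 1.67 in OGD (adjusted p = 0.452) and rose to 51.7 ± 7.08 in OGD/R (0.70 above control, adjusted p = 3.28e-04). ARNT fell from 6.27 to 3.61 FPKM, a call lost after quantile normalization (adjusted p = 0.0719). The hydroxylase gene EGLN1, itself a HIF target, fell from 17.5 to 8.19 FPKM (-1.01, adjusted p = 2.26e-05) and read 19.2 in OGD/R. VHL fell from 11.6 ± 6.69 to 3.15 ± 0.396 FPKM (-1.46, adjusted p = 0.00187), with a wide spread in control. Between OGD and OGD/R the coactivator genes EP300 (from 0.423 to 3.55 FPKM) and CREBBP (from 0.711 to 3.67) and the ARNT paralog ARNT2 (from 1.89 to 6.37) rose most. Their falls in OGD against control (from 1.19, 1.59 and 2.94 FPKM in control) ended with the length trend removed (adjusted p = 0.613, 0.941 and 0.973).

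Glycolytic HIF targets had the same majority direction, with 18 of 21 lower and 2 higher in OGD, against 46.7% and 11.3% of all genes. After median-of-ratios scaling 11 were lower and 2 higher, against 24.9% and 24.8%. Relative to OGD, 18 were higher and 0 lower in OGD/R, against 53.3% and 17.4% of all genes. After median-of-ratios scaling 12 were higher and 0 lower, against 35.6% and 31.5%. ALDOC (-1.34), PFKFB4 (-0.93) and PFKL (-0.91), which act in the upper part of the pathway or its control, fell most in OGD, and HK1 (1.68), PFKFB3 (1.67) and GPI (1.42) rose most in OGD/R against OGD. SLC2A1, the glucose transporter GLUT1, averaged 43.2 ± 3.12 and 52.5 ± 2.03 FPKM in control and OGD (SD, n = 3; 0.28, adjusted p = 0.0163, and 0.0665 without OGD replicate 1) and stood 1.17 above control in OGD/R (adjusted p = 4.83e-06). Of 20 other HIF targets tested 11 were lower and 3 higher in OGD, against 46.7% and 11.3% of all genes. After median-of-ratios scaling 10 were lower and 5 higher, against 24.9% and 24.8%. In OGD/R against OGD 17 were higher and 1 lower, against 53.3% and 17.4% of all genes. These counts were 14 and 2 after median-of-ratios scaling, against 35.6% and 31.5%. EFNA1, an ephrin ligand, fell from 49.0 ± 9.55 to 12.7 ± 0.474 FPKM (-1.85, adjusted p = 1.25e-06), beside -1.80 for CA9, and ZNF395 from 5.69 to 2.19 FPKM. VEGFA did not pass in OGD (36.6 ± 9.32 and 31.5 ± 1.16 FPKM, adjusted p = 0.353) and was 73.1 ± 10.2 in OGD/R (above control, adjusted p = 4.71e-04). EDN1 (from 2.40 to 12.2 FPKM) and GYS1 (from 4.02 to 13.9) rose most from OGD to OGD/R beside EFNA1.

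ATF4 and CHOP targets, which share STC2, DDIT4 and VLDLR with the members, were mostly higher in OGD. Of 20 tested 14 were higher and 2 lower, against 11.3% and 46.7% of all genes. After median-of-ratios scaling 17 were higher and 1 lower, against 24.8% and 24.9%. DDIT3 (CHOP, 3.48), HERPUD1 (1.84) and STC2 (1.59) rose most, and DDIT4 (-1.23) and ATF3 (-0.50) were the 2 that fell. In OGD/R against OGD 14 of the 20 were lower and 4 higher, against 17.4% and 53.3% of all genes. After median-of-ratios scaling 16 were lower and 4 higher, against 31.5% and 35.6%. DDIT3 (-4.16), ASNS (-2.20) and NUPR1 (-2.04) fell most. STC2 stood at 79.2 ± 5.83 FPKM in OGD/R, beside 94.2 ± 5.26 in OGD and 30.6 ± 2.98 in control (SD, n = 3), while DDIT3 went from 362 FPKM in OGD to 19.3 in OGD/R, below the 23.9 to 36.1 of the control libraries (-0.68, adjusted p = 0.00203).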

How the data were processed

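RNA of 9 hCMEC/D3 libraries was measured, 3 per group, with groups and replicate numbers taken from the sample titles. The authors deposited 1 FPKM value per gene and library, and the submitters' processing notes name the build GRCh38. Aligner, quantification tool, annotation and use of strand were not given in the sources used here. Whole reads could not be recovered from low values (the fullest of narrow ratio bins held 2.2% to 3.5% of low genes in a pair of libraries), so depth is unknown and no counting interval was computed.

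The 10818 genes that reached 1 FPKM in 3 or more libraries entered limma 3.58.1 (R 4.3.3) as log2(FPKM + 1). All 9 libraries were in 1 fit of 3 groups, with an intensity trend and 6 residual and 6.33 prior degrees of freedom. P-values are 2-sided and Benjamini-Hochberg adjusted over all genes tested in a comparison (threshold 0.05), and every adjusted p in the text is from limma. The fit was also run on simulated data that held no shift of all genes and no trend with transcript length. That run cannot check calls made under the shifts described above. All 15570 genes matched RefSeq by NCBI Gene ID; 15514 had a transcript length in GENCODE 29 (longest coding transcript).

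The members and lists were chosen with earlier results of these data known. All members are named. Values per library are given for those called with a log2 fold change of at least 1 in any comparison and for those called in none. Of each pathway list the 3 called genes with the largest change in OGD against control and in OGD/R against OGD are named, and HIF1A, EPAS1, ARNT, VEGFA and SLC2A1 always. ATF3 was named after its values were seen. For 1 list, a gene that this rule would name is not reported here. Alternatives were another pseudocount, 2 other filters, 2 scalings, removal of the length trend, a robust prior, fits of 2 groups, a replicate block and leaving out each library. Figures were drawn with matplotlib 3.10.9.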

Additional observations from a re-analysis of the deposited data

How the results depend on the processing

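The directions of the members' medians held under all alternatives, but their sizes and the minority calls depended on scaling. In OGD against control the median of -0.65 became -0.33 with median-of-ratios scaling, -0.41 with quantile normalization and -0.45 with the length trend removed, and the members called higher went from 1 to 4, 4 and 3. In OGD/R against OGD the median of 0.98 became 0.59, 0.77 and 0.56, and the members called lower went from 2 to 6 with median-of-ratios scaling and 5 with quantile normalization. Leaving out 1 library at a time gave 1 to 2 members higher and 20 to 22 lower in OGD against control, 21 to 22 and 1 to 2 in OGD/R against OGD, and 13 to 16 and 5 to 6 in OGD/R against control. The calls that changed sign were small ones. In OGD against control P4HA1 went to 0.04 with median-of-ratios scaling, LOX to 0.01 with that scaling and 0.07 with the length trend removed, and JMJD6 to 0.02, 0.06 and 0.11 with median-of-ratios scaling, quantile normalization and length trend removal; ARNT2 went to 0.00 with the length trend removed. In OGD/R against OGD, BNIP3 went to -0.14 and -0.06 and HIF1A to -0.02 and -0.07 with median-of-ratios scaling and length trend removal. The cause was not tested. Other calls of named pathway genes that were lost were those of HIF1A in OGD/R against OGD without OGD/R replicate 2 (adjusted p = 0.0530), ALDOC there with median-of-ratios scaling (adjusted p = 0.0642) and VHL there with quantile normalization (adjusted p = 0.0993) or length trend removal (adjusted p = 0.0577). With the replicate block 1 member was called lower in OGD/R against OGD in place of 2, since STC2 was lost (adjusted p = 0.0570). In OGD against control the block ended the calls of LOX (adjusted p = 0.0558) and JMJD6 (adjusted p = 0.0673) and MXI1 was called (adjusted p = 0.0401), as it was in OGD/R against control (adjusted p = 0.0347). The block changed no other call among the members. The replicate numbers are not shown to pair the samples, since correlations of same-numbered deviations ran from -0.20 to 0.15 and 2 of 9 libraries correlated best with their own number. With 3 libraries a group and unknown depth, small differences such as those of LOX and JMJD6 were at the limit of what could be called.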
